A study of Mus musculus with 18 samples.

Results

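The genes described here encode the subunits of the mitochondrial oxidative phosphorylation complexes, with the assembly factors that share their names. They were taken from the array by symbol: every gene whose single symbol starts with Nduf, Uqcr, Atp5, Sdh followed by a, b, c or d, or Cox followed by 4 to 8, with the probe set of the highest mean level standing for the gene. The rule gave 93 of 19938 genes. Of these, 82 are subunits (34 of complex I, 4 of complex II, 8 of complex III, 19 of complex IV and 17 of complex V) and 11 are the assembly factors Ndufaf1 to Ndufaf7 and Sdhaf1 to Sdhaf4. Ndufa4 and Ndufa4l2, named for complex I but known as complex IV components, were counted with complex IV. A level is a log2 intensity after quantile normalization over all 18 arrays, a difference is in log2 units, and a value after ± is the standard error from the limma fit.

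RNA of 18 mouse cell samples was measured on 1 array each. The study asked whether reprogrammed colon tumour cells (RTCs, made from tumour cells with iPSC technology) resemble pluripotent stem cells, and what Apc mutation or an induced mutant beta-catenin does in different cell types. The groups were 3 RTC lines (RTC#1, RTC#2 and RTC#3), 2 derivatives (RTC#1 gave #45, RTC#3 gave #9), and 3 embryonic stem cell (ESC) arrays, whose Apc genotypes were Min/Min, +/+ and Min/+. Small intestinal organoids derived from #45 were given as 1 array without 4-OHT (4-hydroxytamoxifen, often used to switch on an engineered recombinase) and 1 array after 2 days at 1 uM. Mouse embryonic fibroblasts (MEFs) derived from #45 were given as 2 arrays without 4-OHT and 2 arrays after 2 days at 2 ug/ml. An ESC line and MEFs named S33 were given as 1 array each without and with dox (doxycycline). The labels give no Apc genotype for RTCs, derivatives, organoids and MEFs, no change made in the derivatives, no target of 4-OHT, no dose or time of dox, and no strain or age, so each line, and each cell population grown from #45, stands for a single clone or culture. Among RTCs, derivatives and ESCs, the spread that p-values measure is between lines, with 1 array each. Nothing says that the 2 MEF arrays with the same treatment came from separate cultures, so their spread may be technical.

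Oxidative phosphorylation takes electrons from NADH at complex I and from succinate at complex II, passes them through complex III and cytochrome c to oxygen at complex IV, and uses the proton gradient built on the way to make ATP at complex V. Most subunits are encoded in the nucleus and made in nearly every cell, while a core of complexes I, III, IV and V is encoded in mitochondrial DNA. Several complex IV subunits have paired isoforms, 1 widely expressed and 1 known from muscle, testis, lung or hypoxic cells. Pluripotent cells are known for a high rate of glycolysis, and intestinal epithelium and fibroblasts use respiration to different degrees.

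The promoters shown are those of the pairs and the gene on which the results turn. Cox7a1 (known from heart and skeletal muscle) and Cox6b2 (known from testis) differed most between the cell types, their partners Cox7a2 and Cox6b1 and the ubiquitous Cox6a1 varied less, and Atp5md was the member called between the RTCs and their derivatives. Each is the 250 bases before the RefSeq start in GRCm38.p6, written 5′ to 3′ along the gene. Capitals mark matches on either strand to the letters GCGCANGCG (NRF1), CCGGAAG (ETS), AAGATGGC (YY1), ACGTG (hypoxia response element), CTTTGAT (TCF/LEF) and CCAAT (the box of that name).
Cox7a1 (chr7:30183921-30184170, plus strand): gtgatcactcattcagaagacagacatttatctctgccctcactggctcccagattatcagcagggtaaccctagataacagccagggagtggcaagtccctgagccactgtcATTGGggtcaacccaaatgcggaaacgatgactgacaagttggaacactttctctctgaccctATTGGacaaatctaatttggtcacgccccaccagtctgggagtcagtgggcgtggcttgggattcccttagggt
Cox7a2 (chr9:79759854-79760103, minus strand): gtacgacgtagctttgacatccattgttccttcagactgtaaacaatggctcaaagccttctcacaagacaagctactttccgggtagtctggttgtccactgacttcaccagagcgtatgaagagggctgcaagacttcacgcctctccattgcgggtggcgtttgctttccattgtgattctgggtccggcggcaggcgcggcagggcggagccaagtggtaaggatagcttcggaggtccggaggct
Cox6b2 (chr7:4753095-4753344, minus strand): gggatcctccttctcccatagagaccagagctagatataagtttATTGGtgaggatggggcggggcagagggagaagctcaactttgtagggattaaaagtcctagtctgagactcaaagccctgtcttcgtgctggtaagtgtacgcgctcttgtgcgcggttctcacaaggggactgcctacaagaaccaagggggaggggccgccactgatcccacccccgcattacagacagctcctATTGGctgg
Cox6b1 (chr7:30626115-30626364, minus strand): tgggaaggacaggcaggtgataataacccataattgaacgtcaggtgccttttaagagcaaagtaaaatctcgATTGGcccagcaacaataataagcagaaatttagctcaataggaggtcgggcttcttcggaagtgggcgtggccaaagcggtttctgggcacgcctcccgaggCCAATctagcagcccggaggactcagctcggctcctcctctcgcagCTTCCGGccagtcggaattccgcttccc
Cox6a1 (chr5:115348959-115349208, minus strand): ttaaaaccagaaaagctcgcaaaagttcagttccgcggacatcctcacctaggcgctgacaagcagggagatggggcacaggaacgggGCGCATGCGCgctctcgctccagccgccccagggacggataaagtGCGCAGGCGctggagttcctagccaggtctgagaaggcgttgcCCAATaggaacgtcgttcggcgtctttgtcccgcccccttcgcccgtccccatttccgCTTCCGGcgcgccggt
Atp5md (chr19:47090648-47090897, minus strand): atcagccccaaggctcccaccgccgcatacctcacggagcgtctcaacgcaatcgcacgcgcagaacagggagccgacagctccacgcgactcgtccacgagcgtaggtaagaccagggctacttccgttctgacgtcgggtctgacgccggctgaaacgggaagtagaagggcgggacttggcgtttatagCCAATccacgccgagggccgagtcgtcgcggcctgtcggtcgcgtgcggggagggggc
Cox7a1 and Cox6b2 each held 2 CCAAT boxes and none of the other letters, Cox6b1 held an ETS match besides 2 CCAAT boxes, Cox6a1 held 3 NRF1 matches, of which 2 overlap, with an ETS match and a CCAAT box, Atp5md held 1 CCAAT box, and Cox7a2 held none. Among the 67 subunit genes with a promoter in the table, 19.4% held the NRF1 letters, against 5.86% of all 27025 genes. ETS letters were in 17.9% against 7.83%, hypoxia response letters in 20.9% against 18.5%, CCAAT in 43.3% against 37.5%, YY1 letters in 1.49% against 1.83%, and TCF/LEF letters in 1.49% against 3.72%. These are matches of letters in 1 window, given with no test.

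The labelled cell types were borne out by their markers. The mean level of 8 pluripotency genes was 12.58 to 12.88 on the 10 RTC, derivative and ESC arrays and 6.66 to 6.91 on the others. Means of 10 intestinal epithelial genes were 12.37 and 12.27 in the organoids and 7.01 to 7.78 elsewhere, and means of 8 fibroblast genes were 12.13 to 12.89 in MEFs and 7.70 to 11.45 elsewhere. The median deposited intensity of an array ran from 142 (organoid with 4-OHT) to 317 (RTC#2). Values identical to the last digit made up 19.2% of probe sets between MEF 2 without and with 4-OHT, 17.3% between the Min/Min and +/+ ESCs, 11.7% and 9.52% between #9 and the 2 arrays of MEF 2, and at most 0.104% in every other pair. The reason was not tested.

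Most subunit genes were well expressed everywhere and had smaller ranges than genes at large. Of the 93 members, Cox7b2 and Cox8b lay above the array median on 0 arrays and Cox8c on 3. Over the 91 members above the median on at least 1 array, the gap between a gene's highest and lowest array had a median of 1.19, against 1.69 over 13937 genes. These sets were not matched on level. The gap exceeded 1 in 56 members (61.5%), against 82.5% of all genes. The gap exceeded 2 in 5 members (5.49%), against 39.7% of all genes: Cox6b2 (4.25), Cox7a1 (3.88), Ndufa4l2 (2.66), Ndufaf6 (2.59) and Cox6a2 (2.06). At the other end, Atp5b, the catalytic beta subunit of ATP synthase, stayed between 13.50 and 13.74. It lies near the top of the scale, where the highest level of any gene was 14.29, and the 27 genes with a mean as high or higher had a median range of 0.28. Whether its range is compressed there was not tested.

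Small shifts ran through whole complexes. For each gene the deviation from its own mean over the 18 arrays was taken. The median over 80 subunits was highest in the organoids without 4-OHT, at 0.44, and was 0.27 in those with 4-OHT. It was 0.31 in derivative #45 but -0.04 in derivative #9, and 0.22, 0.09 and 0.20 in RTC#1, RTC#2 and RTC#3. ESCs lay between, at 0.04 for Apc +/+, -0.08 for Min/+, -0.09 for Min/Min, -0.05 for S33 without dox and 0.04 with dox. MEFs were low throughout, from -0.17 to -0.26 in the #45-derived arrays and at -0.13 and -0.14 in the S33 arrays. The same median over all genes stayed between -0.12 and 0.01.

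By complex, the organoids without 4-OHT showed their largest medians for complex III (0.70) and complex II (0.64), then complex V (0.45), complex I (0.42) and complex IV (0.33). The 11 assembly factors did not share the organoid level, with medians of 0.05 and -0.04. They were instead high in derivative #45 (0.54), in the RTCs (0.38 in each) and in Apc +/+ ESCs (0.36), and lowest in S33 MEFs (-0.45 and -0.47). Organoids without 4-OHT held the highest level of 32 of the 80 subunits (40%), against 14.6% of all genes. RTC#1 and derivative #45 held another 13 and 14 (16.2% and 17.5%, against 7.32% and 7.96% of all genes). The lowest level fell most often on Min/Min ESCs (16 subunits, 20%, against 11.8% of all genes) and MEF 1 with 4-OHT (15 subunits, 18.8%, against 4.98%).

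**Figure D1:**
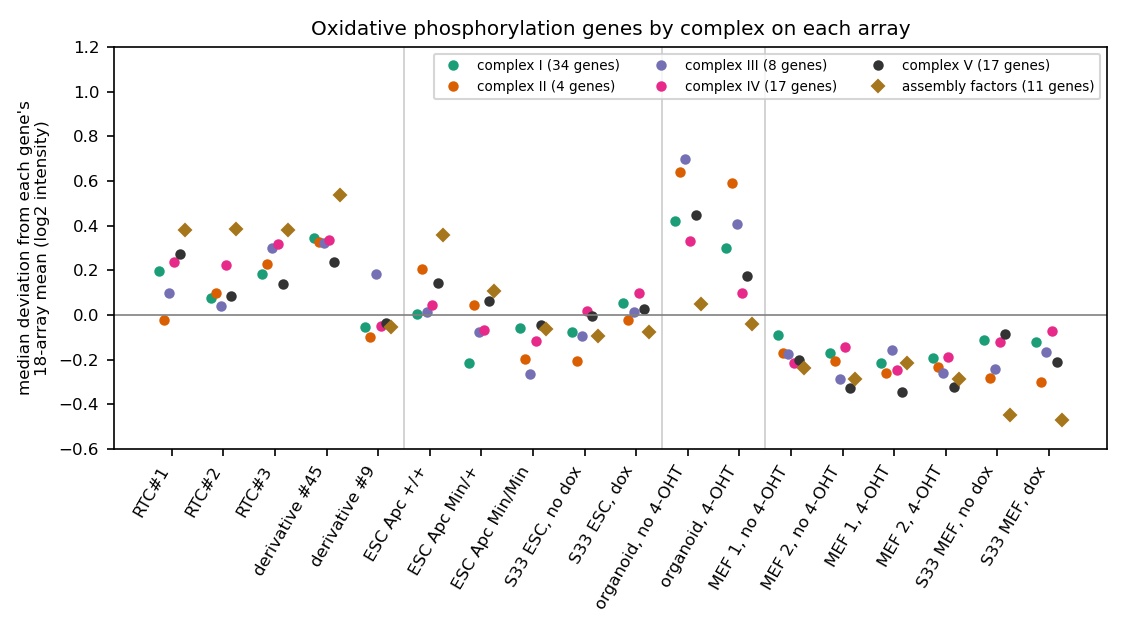
Median deviation of each gene from its own 18-array mean, in log2 intensity, for the members of each complex (circles) and the assembly factors (diamonds) on each array; vertical lines divide RTCs and derivatives, ESCs, organoids and MEFs. Every complex lies above 0 in both organoid arrays and below 0 in all 6 MEF arrays, and derivative #45 lies above derivative #9 in each class.

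The 4 subunit genes with a range over 2 were all components of complex IV, and they differed in where they were low. Cox7a1 ranged from 10.29 to 11.63 on the 10 pluripotent arrays and was 11.11 and 10.32 in organoids. In MEFs it was 8.04, 7.79, 7.79 and 7.75 in the #45-derived arrays and 8.55 and 8.15 in the S33 arrays, near the array median of 7.93. Its level thus did not overlap between MEFs and all other arrays. Cox7a2, the widely expressed partner, ran from 11.24 to 12.52 over the 18 arrays.

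Cox6b2 had a different order. Pluripotent arrays ran from 10.54 to 11.87, the 6 MEF arrays from 9.38 to 9.83, and organoids were at 7.85 and 7.62, so the 3 kinds of cell did not overlap. Its partner Cox6b1 stayed between 12.38 and 13.14. Ndufa4l2, a paralog of Ndufa4 known as a target of hypoxia signalling, was 8.23 to 10.06 in the pluripotent arrays other than #9, where it was 7.81. Elsewhere it was 7.40 to 8.37, and organoids without 4-OHT had the top value of that range. Within the pluripotent arrays #45 and #9 were thus the highest and the lowest.

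Cox4i2, an isoform known from lung and from hypoxia, was lowest in organoids (8.04 and 7.97), while its MEF values of 8.25 to 8.90 overlapped the pluripotent range of 8.42 to 9.70. Cox6a2, known from heart and skeletal muscle, was 9.23 in organoids without 4-OHT and 7.17 to 8.45 on the 17 others. Cox8c, known from testis, stayed close to or below the median, from 6.93 to 8.19. Of the widely expressed isoforms with a range over 1, Ndufa4 ran from 10.46 to 11.97, Cox4i1 from 11.23 to 12.30, Cox7a2l from 9.67 to 10.85 and Atp5g3 from 11.95 to 12.97. The 6 MEF arrays held the lowest values of Ndufa4, Cox7a2 and Atp5g3, and Cox7a2l was highest in organoids without 4-OHT.

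**Figure D2:**
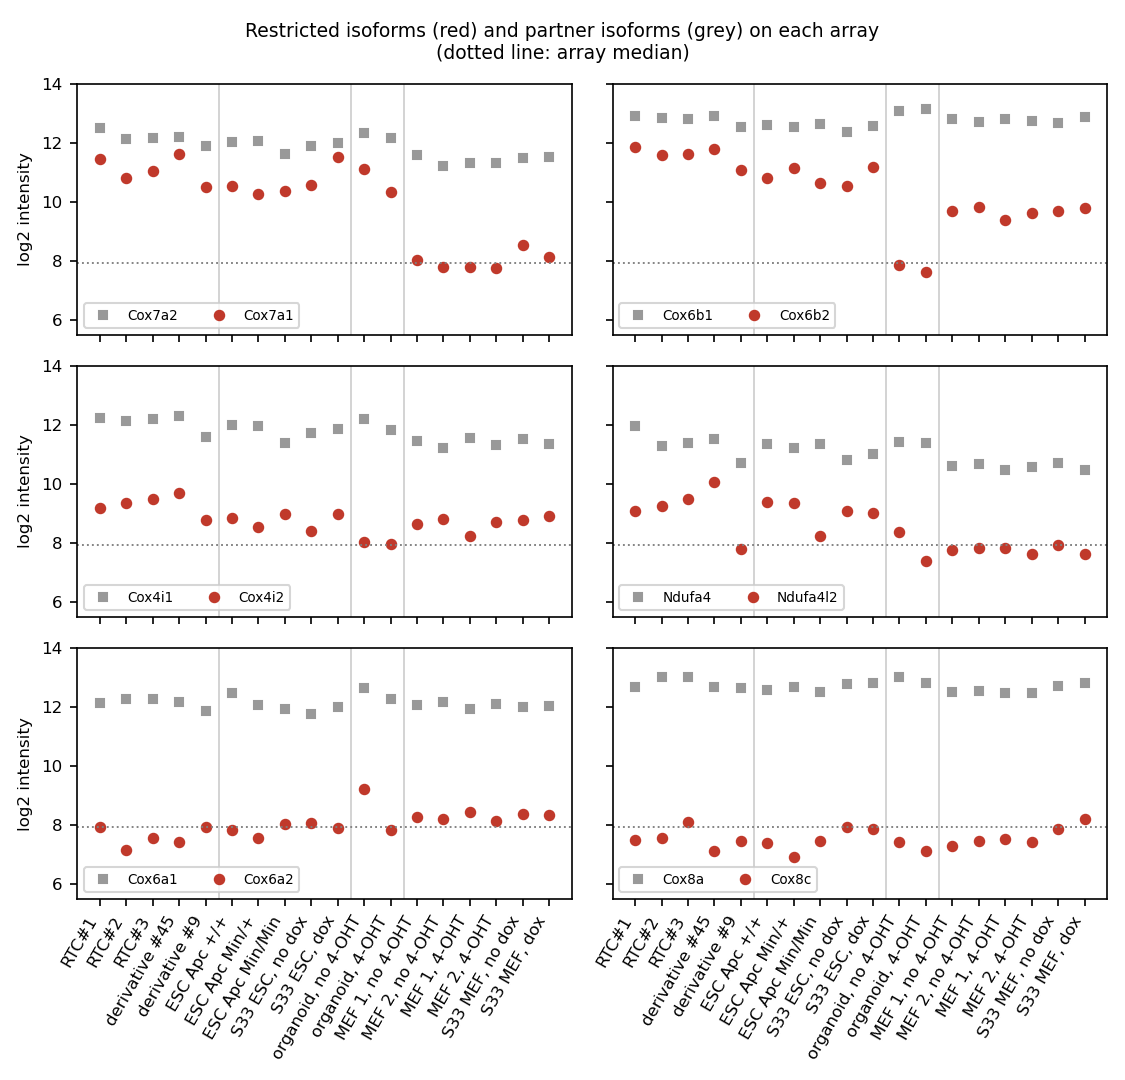
Log2 intensity of 6 restricted isoforms (red circles) and of their widely expressed partners (grey squares) on each array, with the array median as a dotted line; levels of different genes are not compared. Cox7a1 falls to about the median in the 6 MEF arrays, Cox6b2 is lowest in the 2 organoid arrays, and Cox6a2 stands above its other values on the organoid array without 4-OHT.

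Against ESCs, RTCs had somewhat higher levels of most members, and 3 passed the test. The 3 ESC arrays in this test were the +/+ and Min/+ lines and the untreated S33 line, and the test was limma and Benjamini-Hochberg adjustment over all 12080 genes tested. Of 91 members tested, 3 rose (background 3.21% of all genes) and 0 fell (background 3.48%), and 22 (24.2%, against 23.6% of all genes) had an unadjusted p below 0.05. Both the share that rose, 3.3%, and the unadjusted share were thus near the background. Values were higher in 79 of the 91, and the median difference was 0.22 against -0.03 over all genes. Groups were separate in part: the 3 RTC arrays all lay above the 3 ESC arrays for 32 members, where 14.2% of all genes did so, and all lay below for 3 members, where 17.7% of all genes did so.

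Cox6b2 was 11.87, 11.59 and 11.64 in the RTCs and 10.82, 11.17 and 10.54 in the Apc +/+, Min/+ and S33 ESCs, a difference of 0.86 ± 0.18 (limma adjusted p = 0.0358). All RTC values lay above all ESC values, and the dox-treated S33 ESCs (11.18) and Min/Min ESCs (10.64), which were outside the test, stayed below the RTCs too. Cox4i2 was 9.20, 9.36 and 9.51 in RTCs and 8.85, 8.55 and 8.42 in ESCs (0.75 ± 0.16, limma adjusted p = 0.0331). Uqcrq, a small subunit of complex III, was 11.85, 11.66 and 11.73 against 11.24, 11.28 and 11.24 (0.50 ± 0.12, limma adjusted p = 0.0477). Cox7a1 had separate groups but missed the threshold (0.64 ± 0.18, limma adjusted p = 0.0880).

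By complex the median difference was 0.24 for complex I (31 of 34 higher in value), 0.03 for complex II (2 of 4), 0.17 for complex III (6 of 8), 0.27 for complex IV (15 of 17), 0.09 for complex V (14 of 17) and 0.30 for assembly factors (11 of 11). The 20 core subunits were a chosen list of catalytic or electron-carrying subunits and others, such as Cox5a, Cox5b, Uqcrc1 and Uqcrc2. They had a median of 0.05 with 12 higher and 8 lower, and 0 passed. Among them Sdhd, a membrane anchor of complex II, had the largest positive difference (0.33, limma adjusted p = 0.394) and Sdhb, its iron-sulfur subunit, the most negative (-0.29, limma adjusted p = 0.205).

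Markers of other cells moved with this comparison. All 8 fibroblast markers were lower in value in RTCs, with array means of 9.47, 10.33 and 10.12 against 10.84, 10.99 and 9.43 in the Apc +/+, Min/+ and S33 ESCs, and 0 of 8 passed. All 8 immune markers tested were higher, 4 past the threshold, with array means over 10 genes of 8.63, 9.40 and 9.47 against 7.89, 7.90 and 8.04. Their part in the member differences was not tested. The 3 calls were lost on the values as deposited and with arrays centred on their medians, and leaving out 1 array left 0 to 3: 0 without RTC#2 or RTC#3, 1 without RTC#1, Apc +/+ or Min/+, and 3 without S33 ESCs. The member median kept its sign throughout and was 0.25 to 0.26 above the median of all genes under the 3 scalings.

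Between RTCs and their derivatives the members moved in both directions, and 1 gene stood apart. Of 90 tested, 1 was higher in RTCs by limma (background 0.838% of 11940 genes) and 0 were lower (background 0.762%), with 8 at an unadjusted p below 0.05 (8.89%, against 14.1% of all genes). The median difference was 0.06, with 54 higher and 36 lower in value. Groups did not overlap for 12 members with RTCs above (background 13.9%) and 8 with RTCs below (background 17.2%). The median difference became 0.28 without #45 and -0.11 without #9. The members were higher in #45 than in #9, with subunit median deviations of 0.31 and -0.04.

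Atp5md, a small membrane subunit of ATP synthase known for its part in dimers of the enzyme, was 13.17, 13.10 and 13.03 in the RTCs and 12.24 and 11.89 in #45 and #9. The difference was 1.04 ± 0.19 (2.05-fold, limma adjusted p = 0.0475). With each derivative blocked with its parent RTC the limma adjusted p was 0.0752 and 0 members were called, and the call was also lost in 6 of the other 10 alternatives (limma adjusted p from 0.0145 to 0.57 over all 11). The level was 13.00 to 13.26 in all 5 ESC arrays and in S33 MEFs, but 12.18 and 12.01 in the #45-derived organoids and 11.56 to 11.89 in the #45-derived MEFs. The 2 derivatives and the cells grown from #45 were thus at 12.24 or lower and all other arrays at 13.00 or higher, with no overlap, in pluripotent cells and in MEFs alike. The 3 probe sets of the gene differed between RTCs and derivatives by 1.04, 1.25 and 1.49. The annotation pairs all 3 with the same transcript, and whether they also detect near-identical copies was not tested.

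**Figure D3:**
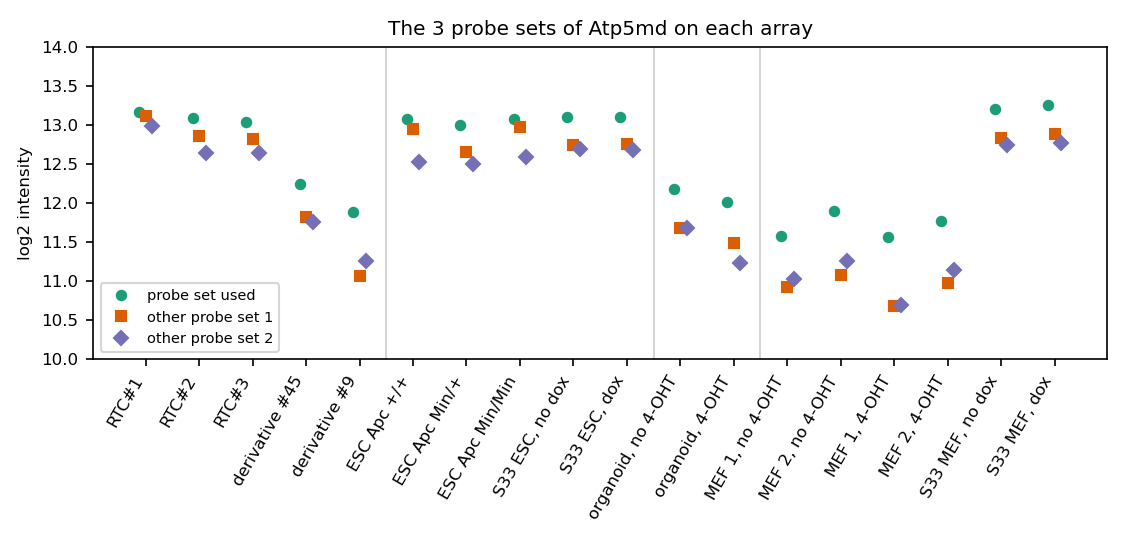
Log2 intensity of the 3 probe sets of Atp5md on each array, with the probe set used as green circles and the others as orange squares and violet diamonds. In each probe set the derivatives, organoids and #45-derived MEFs lie below the RTCs, the ESCs and the S33 MEFs.

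Other members with separate groups missed the threshold. Ndufb6, an accessory subunit of complex I, was 13.14, 12.87 and 12.98 in RTCs and 12.37 and 12.26 in derivatives (0.68 ± 0.18, limma adjusted p = 0.137). It was 12.82 to 12.93 in the 3 Apc ESC lines but 12.30 and 12.56 in S33 ESCs, so S33 ESCs overlapped the derivatives, unlike for Atp5md. Uqcr11, a small subunit of complex III, was 11.35, 11.46 and 11.28 in RTCs against 12.25 and 11.97 (-0.75 ± 0.18, limma adjusted p = 0.113). Of the 20 core subunits 9 were higher and 11 lower in value, with Ndufv2 (0.26, limma adjusted p = 0.579) and Sdhb (-0.66, limma adjusted p = 0.275) at the ends.

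Organoids had higher values than the derivatives for most subunits. The 1 organoid array without 4-OHT has no spread of its own: it entered a fit with the RTC, derivative and MEF arrays and was assumed to vary like them, and every call for organoids here rests on that assumption. Under it 9 members rose, while the isoforms Cox6b2 and Cox4i2 fell. The 9 calls of 90 members stood against a background of 22.4% of 12592 genes higher, and the 2 lower against 23.9%, with 22 members at an unadjusted p below 0.05 (24.4%, against 54% of all genes). Neither share of calls among members exceeded its background. The median difference was 0.25 against -0.04 over all genes, and all 20 core subunits were higher in value. The organoid array lay above both derivatives for 50 members (background 40.5%) and below both for 13 (background 43.1%). In bulk samples, fewer cells of a type and less RNA per cell cannot be told apart.

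The members that rose included both catalytic subunits of succinate dehydrogenase. Sdhb was 12.40 in organoids against 11.71 and 11.03 in #45 and #9 (1.03 ± 0.26, limma adjusted p = 0.0108), and its other 15 arrays ran from 10.60 to 11.82. Sdha, the flavoprotein, was 12.66 against 11.97 and 12.02 (0.67 ± 0.19, limma adjusted p = 0.0163). In complex III, Uqcrq rose by 0.82 ± 0.19 (limma adjusted p = 0.00763) and Uqcrfs1, the Rieske iron-sulfur protein, by 0.74 ± 0.24 (limma adjusted p = 0.0309). The complex I subunits Ndufa5 (0.79) and Ndufa10 (0.67) passed as well.

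Within complex IV, Cox6a2 rose by 1.55 ± 0.32 (limma adjusted p = 0.00368) and Cox6a1 by 0.65, while Cox6b2 fell by 3.59 ± 0.28 (limma adjusted p = 1.14e-05) and Cox4i2 by 1.19 ± 0.35 (limma adjusted p = 0.0220). Cox7a2l, known for a role in joining complexes III and IV, was called at 0.81 on the probe set used, but its other probe set gave 0.10. Against #45 alone, the line the organoids came from, 6 members were higher, 10 were lower and the median was 0.08; against #9 alone, 30 were higher, 2 were lower and the median was 0.46. On the values as deposited 1 was higher.

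Most members had lower values in MEFs than in derivatives, but the share that passed the test was no larger than among all genes. In the same fit 24 of 90 members fell (background 28.1% of 12572 genes) and 0 rose (background 30.2%), so the 26.7% of members called lower lay just under the background. An unadjusted p below 0.05 was reached by 33 members (36.7%) against 63% of all genes. The median difference was -0.35 against 0.02 over all genes, and 75 of 90 were lower in value. All MEF arrays without 4-OHT lay below both derivatives for 54 members (background 38.4%) and above them for 5 (background 39.6%). The calls were 6 of 34 in complex I, 1 of 4 in complex II, 3 of 8 in complex III, 5 of 16 in complex IV, 3 of 17 in complex V and 6 of 11 assembly factors. Over the subunits alone 22.8% were called lower, below the 28.1% of all genes.

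Cox7a1 fell by 3.16 ± 0.34 (8.94-fold, limma adjusted p = 0.000101) and Cox6b2 by 1.67 ± 0.24 (limma adjusted p = 0.000419). The assembly factor Ndufaf6 was 7.77 and 7.78 in MEFs without 4-OHT against 9.81 and 9.03 in the derivatives, and fell by 1.64 ± 0.31 (limma adjusted p = 0.00184). Uqcr10 of complex III fell by 0.97, Ndufb8 of complex I by 0.93 and the assembly factor Ndufaf7 by 0.91. Smaller falls were seen in the widely expressed isoforms Cox7a2 (by 0.64), Cox4i1 (by 0.60) and Atp5g3 (by 0.43). The count was 48 against #45 alone and 11 against #9 alone, 15 and 10 without MEF 1 or MEF 2, and 5 on the values as deposited. Immune markers also differed between the cultures, with array means of 10.20 in MEF 1 and 8.28 in MEF 2 without 4-OHT, and their part was not tested. These comparisons share the derivative arrays, and the RTC comparison uses them too.

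With 4-OHT, subunit levels in organoids were mostly lower. There was 1 array per arm, so differences were not tested and are given beside the share of all genes at least 1.5-fold apart. Of 89 members, 6 were at least 1.5-fold lower (background 5.21% of 11397 genes) and 0 at least 1.5-fold higher (background 6.6%). The median was -0.20 against 0.00 over all genes, and 69 of 89 were lower in value.

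Cox6a2 went from 9.23 without to 7.85 with 4-OHT (-1.38), Ndufa4l2 from 8.37 to 7.40 (-0.97) and Cox7a1 from 11.11 to 10.32 (-0.78). Atp5k, a membrane subunit of ATP synthase, differed by -0.80, and Sdhb, at 12.40 and 11.82, by -0.59. Cox7a2l differed by -0.80 on the probe set used and by 0.11 on the other. The largest positive differences were 0.37 for Ndufa12, 0.20 for Atp5g2, which encodes a c-ring subunit, and 0.19 for Ndufa1, whose sign turned on the values as deposited (-0.07). The direction of the median depended on the scaling: it was -0.37 as deposited and 0.25 with arrays centred on their medians, where the median of all genes was -0.23 and 0.40. Relative to all genes it was -0.20 after quantile normalization and -0.15 in both others.

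In MEFs, 4-OHT moved the members little. By limma, 0 of 89 members and 0 of 11603 genes passed (background 0% in each direction). An unadjusted p below 0.05 was reached by 0 members and by 519 genes (4.47% of all genes). Values were identical for 19.2% of probe sets between MEF 2 without and with 4-OHT, and their part in these differences was not tested. Differences ran from -0.26 to 0.33 with a median of -0.04. Groups did not overlap for 9 members above and 23 below, where 17.9% and 14.9% of all genes did so. The organoid and MEF treatments differed in dose unit as well as in cell type, so their values are set side by side without a comparison.

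Dox in S33 ESCs, 1 array per arm, went with higher values for 74 of 91 members, by a small amount. The median was 0.09 against 0.01 over all genes. At least 1.5-fold higher were 2 members (background 4.63% of 11254 genes), and 0 were at least 1.5-fold lower (background 5.26%). Cox7a1 went from 10.57 to 11.52 (0.95) and Cox6b2 from 10.54 to 11.18 (0.63), followed by Cox4i2 from 8.42 to 8.97 (0.55). Of the 20 core subunits, 19 were higher in value with dox. The most negative differences were small, at -0.26 for the assembly factor Ndufaf4, -0.19 for Sdhaf2 and -0.19 for Atp5l of complex V. Fibroblast markers moved with dox in these cells: 6 of 8 were at least 1.5-fold lower and 1, Pdgfra (0.71), was at least 1.5-fold higher. Their array mean went from 9.43 to 8.60. All 15 hypoxia-induced genes tested were lower in value, 5 of them at least 1.5-fold. The part of these markers and genes in the member values was not tested.

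In S33 MEFs, 0 of 88 members were at least 1.5-fold apart in either direction (background 7.09% higher and 8.22% lower of 11390 genes), and the median was 0.02 against 0.04 over all genes. The largest positive differences were 0.41 for Uqcr11, 0.32 for Ndufa7 and 0.31 for Cox8c, and the most negative were -0.40 for Atp5e, the epsilon subunit of ATP synthase, -0.39 for Cox7a1 and -0.34 for Atp5mpl. Of 88 members measured in both cell types, 37 were higher with dox in both, 35 were higher in ESCs and lower in MEFs, 10 were lower in ESCs and higher in MEFs, and 6 were lower in both. These are 42%, 39.8%, 11.4% and 6.82% of the members, against 27.7%, 22.5%, 26.7% and 22.9% of 10225 genes. Members were thus mostly higher with dox in ESCs and split between directions in MEFs, and the difference between the cell types was not tested.

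**Figure D4:**
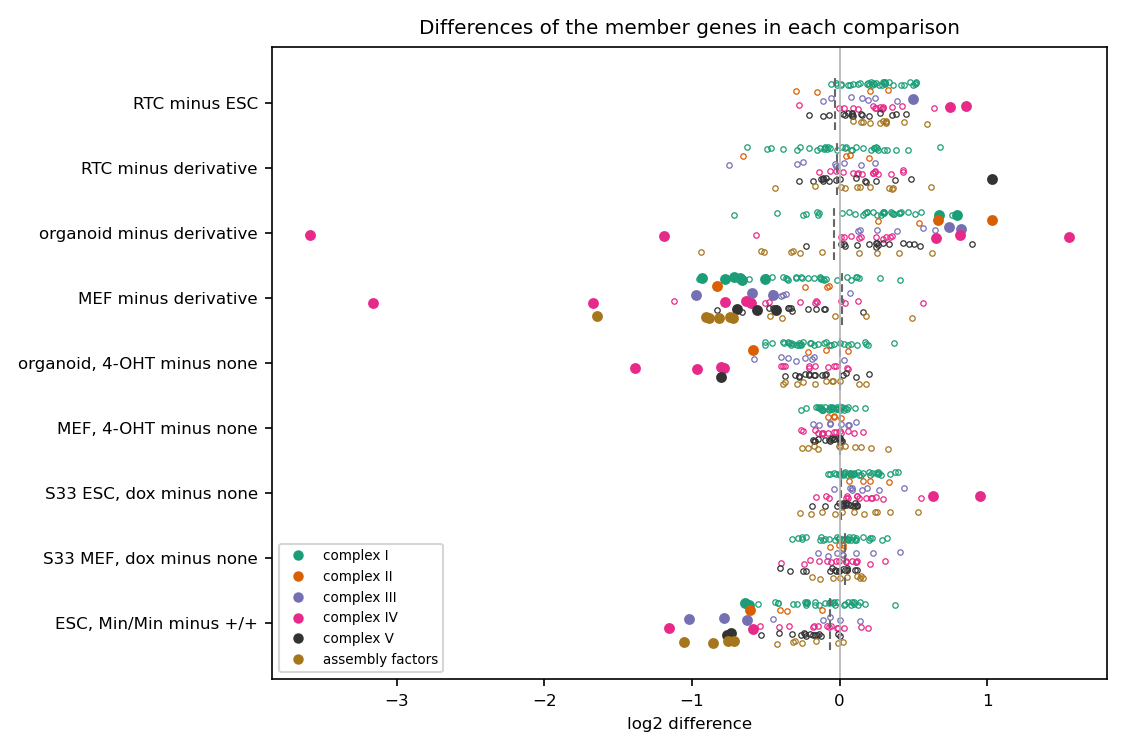
Log2 difference of each member that passed the filter in each comparison, coloured by complex; filled points passed the limma threshold or, with 1 array per arm (both dox rows, organoid 4-OHT and Min/Min), were at least 1.5-fold apart, and dashed lines mark the median of all genes. Points of S33 MEFs and 4-OHT-treated MEFs cluster around 0, those of organoids against derivatives lie mostly to the right, and those of organoid 4-OHT and of MEFs against derivatives mostly to the left.

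Apc Min/Min ESCs, 1 array against 1 of Apc +/+, had 14 of 90 members at least 1.5-fold lower (background 16.7% of 11390 genes) and 0 higher (background 11.6%). The median was -0.17 against -0.06 over all genes. Ndufa4l2 went from 9.39 in +/+ to 8.23 in Min/Min (-1.16), Sdhaf1 from 9.45 to 8.40 (-1.06), Uqcr10 from 10.90 to 9.88 (-1.02) and Cox4i1 from 11.99 to 11.40 (-0.59). The largest positive differences were 0.38 for Ndufa11, 0.19 for Cox6a2 and 0.17 for Ndufb11. The labels mention growth of Min/Min ESCs in a trophoblast stem cell medium and do not say whether this array came from it, so genotype and medium cannot be told apart. Fibroblast markers averaged 11.45 in Min/Min and 10.84 in +/+, and 3 of 8 were at least 1.5-fold higher. Immune markers averaged 8.54 and 7.89, with 4 of the 5 that passed the filter at least 1.5-fold higher. Of 17 hypoxia-induced genes, 6 were at least 1.5-fold lower and 2 higher. The part of these in the member values was not tested.

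Genes that work with the complexes were read from lists in the same fits. For the lists the backgrounds are those of the members, 22.4% higher and 23.9% lower in organoids and 30.2% higher and 28.1% lower in MEFs. For RTCs against ESCs they are 3.21% higher and 3.48% lower. Of 15 tricarboxylic acid cycle genes, 6 rose in organoids against derivatives, among them Suclg2 (0.79) and Ogdh (0.73), and 6 fell in MEFs, among them Pdhb (-1.03) and Idh3a (-0.84). Of 25 mitochondrial ribosome and import genes, 17 fell in MEFs, led by Mrpl15 (-1.67) and Mrps35 (-1.67), while in organoids 1 rose and 2 fell. Of 16 regulators of mitochondrial biogenesis, 4 rose and 3 fell in organoids. In MEFs 15 were tested, of which 1 rose and 9 fell. Ppargc1a rose in organoids (2.96) and was the 1 that rose in MEFs (2.25). Esrrg (3.02) rose in organoids, and Tfam (-1.71) fell in MEFs. The most negative differences among the regulators were -4.73 in organoids and -5.05 in MEFs. The regulators include Esrrb, also 1 of the 8 pluripotency genes, all of which fell in both comparisons. All these are calls by limma in the fit described above. Against ESCs, RTCs had 1 of 30 further assembly factors higher, the copper chaperone Cox17 (0.77 ± 0.18, limma adjusted p = 0.0462), and 1 of 9 nucleotide and uncoupling carriers, Slc25a31 (1.60 ± 0.21, limma adjusted p = 0.0067), an ADP/ATP carrier known from testis and pluripotent cells. There limma called 0 of 17 hypoxia-induced genes, with 3 at an unadjusted p below 0.05, where 23.6% of all genes lay below it. It also called 0 of 15 cycle genes and 0 of 25 ribosome and import genes, with 0 at an unadjusted p below 0.05.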

How the data were processed

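The deposited series table holds linear intensities of 28856 probe sets for 18 Affymetrix Mouse Gene 1.0 ST arrays, as the authors deposited them. Per the labels, RNA was prepared with the RNeasy Plus Mini kit. Background correction, summarisation and scaling by the authors are not given in the sources used here, and 3 probe sets had no values. Deposited array medians differed, so values were taken to log2 and quantile normalized over all arrays, which assumes like distributions in all cell types. The platform annotation gave 21789 probe sets 1 symbol, 1621 several and 5443 none, and probe sets with several symbols were not used. The highest-mean probe set stood for a gene, giving 19938 genes. All 93 members matched RefSeq by Entrez ID. The members, lists and tests were chosen with earlier results of these data known. 3 probe sets with several symbols matched the member rule and were left out.

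A gene was tested where it lay above the array median (percentile 50) on at least 1 compared array. Replicated groups were compared with limma 3.58.1 in R 4.3.3 (lmFit, eBayes, Benjamini-Hochberg adjustment over all genes tested, threshold 0.05). The MEF and organoid comparisons with derivatives used 1 fit over the RTC, derivative, MEF and organoid arrays. Comparisons of 1 array with 1 array have no replicate check and no test, and genes at least 1.5-fold apart were counted. The number of arrays limits the precision. Named members were all that passed a test where 12 or fewer did, otherwise the 6 largest rises and falls, the 3 largest in each direction with 1 array per arm, isoforms with a range over 1, and the core subunits at either end of the RTC comparisons; other members named were chosen after their values were seen. List genes named had passed. Per the titles, derivatives pair with RTC#1 and RTC#3 by line of origin; correlations of the paired deviations were 0.0918 and 0.0258. The script was tested on simulated data.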

Additional observations from a re-analysis of the deposited data

Results flagged for a closer look

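Cox7a1 differed in opposite directions with dox in the S33 cells. Its level was 0.95 higher on the log2 scale with dox in ESCs and differed by -0.39 in MEFs, with 1 array per arm in each. In MEFs the levels of 8.55 and 8.15 were close to the array median of 7.93, while in ESCs they were 10.57 and 11.52. The difference between the cell types was not tested. No group held the 4 or more arrays needed to look for a single outlying array.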

How the results depend on the processing

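Leaving out 1 array at a time gave 0 to 3 members called higher in RTCs against ESCs and 0 to 2 against derivatives, where the median difference ran from -0.11 to 0.28. For MEFs against derivatives it gave 10 to 48 called lower, 0 to 5 called higher and medians of -0.55 to -0.15, and for organoids 6 to 30 higher, 2 to 10 lower and medians of 0.076 to 0.46. On the values as deposited, 0 members were called in either RTC comparison, 5 were lower in MEFs (median -0.22), 1 was higher in organoids against derivatives (median 0.022), and 18 were at least 1.5-fold lower with 4-OHT in organoids (median -0.37). With arrays centred on their medians, 0 were called in either RTC comparison (median against derivatives -0.13), 4 were lower in organoids against derivatives, and with 4-OHT 11 were higher and 2 lower (median 0.25). Fitting only derivative, organoid and untreated MEF arrays gave 12 lower in MEFs and 3 higher and 1 lower in organoids. A trend in eBayes gave 14 higher in organoids and 2 higher in RTCs against derivatives. At least 2-fold apart were 1 member with organoid 4-OHT, 0 with dox in ESCs and 3 in Min/Min ESCs. For the other alternatives the values stayed within 1.5 times or 1 SD of those reported. For single named genes, 292 values kept their side of the threshold or, with 1 array per arm, stayed within 1 SD. A further 66 lost the call, 12 with 1 array per arm moved by 1 SD or more, and 0 called genes reversed.

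With parent and derivative as a replicate block, 0 members were called between RTCs and derivatives (median 0.10). The numbers of the MEF arrays pair nothing in the labels; the correlation of their deviations was 0.83, and with a replicate block 54 genes were higher and 94 lower with 4-OHT where 0 were called without it, while 0 members were called (median -0.04). With 1 to 3 arrays per group, small differences of members could not be separated from the spread between arrays, and levels near the array median, such as Cox8c, are close to background.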

Other observations

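The array carried 2 of the subunit genes encoded in mitochondrial DNA. ND3, a complex I subunit, ran from 12.33 to 13.24 and COX2, a core subunit of complex IV, from 12.92 to 13.60 over the 18 arrays. Min/Min ESCs had the highest level of both genes, while they had the lowest level of 16 of 80 nuclear subunits. With 4-OHT in organoids, ND3 and COX2 differed by 0.09 and 0.35, where 69 of 89 nuclear-encoded members were lower in value. That count depended on the scaling: with arrays centred on their medians, 75 of 89 members were higher in value. Single arrays stand behind these values and they were not tested.

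Genes of energy transfer outside the complexes had wide differences by cell type. Cyct, the testis form of cytochrome c, was lower than in derivatives in both MEFs (-4.19) and organoids (-4.39), by limma in the same fit. Ckmt1, a mitochondrial creatine kinase, rose by 4.15 in organoids, and Slc25a31 was lower there (-2.71), as was Slc25a4 (-1.21), the ADP/ATP carrier known from heart and muscle.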
